A study of Cavia porcellus with 72 samples.

Results

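The amyloid precursor protein gene APP, its relatives APLP1 and APLP2, the processing enzymes ADAM10, BACE1, NCSTN and PSENEN, and the tau and apolipoprotein E genes MAPT and APOE were followed in the hippocampus of juvenile female guinea pigs over 3 generations. The 9 genes were taken by symbol from the deposited count tables, with case ignored. Of them, 8 stood in all 3 tables, among 11446 genes that the tables share, and PSENEN stood in none and was not analysed here. The list was made with earlier results of these data known, among them the change of APP in F3. For these genes every F3 value is therefore a description without a p-value, and nothing is read from counts of F3 calls. F1 and F2 values are given with tests, which are not independent of that knowledge. The lists of further pathway genes and of cell type markers were chosen with the same knowledge.

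The animals were Dunkin-Hartley guinea pigs killed on postnatal day 40, and they descended through the paternal line from F0 pregnancies. F0 females were treated with saline vehicle (control) or with the synthetic glucocorticoid (sGC) betamethasone. The dose was 1 mg/kg, given in 3 courses from gestational day 40 to day 61. F1 fetuses were thus exposed in the womb of treated mothers, whereas F2 and F3 animals were never given the drug and are named sGC for their lineage. Males of F1 and F2 were mated with females from outside the experiment, and the offspring sequenced came from different mothers. RNA-seq covered 6 control and 5 sGC animals in F1, 6 and 6 in F2, and 6 and 7 in F3. RNA came from powdered right hippocampus, so each value is an average over neurons, glia and vessels.

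APP is a transmembrane protein of neurons and other cells, with roles in synapse formation and cell adhesion, and APLP1 and APLP2 are its paralogs. ADAM10, the main alpha-secretase of neurons, cuts APP within the amyloid-beta segment. BACE1, the beta-secretase, makes the other first cut, after which gamma-secretase, a complex that holds nicastrin (NCSTN), APH1 and PEN-2 (PSENEN), releases amyloid-beta. MAPT encodes tau, a microtubule-binding protein of axons, and APOE encodes the main lipid carrier of the brain, which is made mostly by astrocytes. In the hippocampus these proteins are best known from Alzheimer's disease, but they are also made in the young brain.

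Between 13507449 and 19767033 reads were counted per library. At this depth APP had 21063 to 42806 reads in a library and NCSTN, the gene with the fewest, had 839 to 1358. Levels below are counts per 1e+06 reads (CPM) scaled by TMM over all 36 libraries. They are not corrected for transcript length and are compared between animals, not between genes. Neuronal markers of the hippocampus (PROX1, NEUROD2 and others) were in the tables for 6 of 7 genes. Their summed level was 815 to 910 CPM in F1, 650 to 735 CPM in F2 and 778 to 918 CPM in F3 libraries. A few libraries stood apart. F1 sGC replicate 4 had the highest astrocyte marker sum (16367 CPM, against 9960 to 13181 in the other sGC animals of F1) and the lowest neuron marker sum (4684 against 5560 to 6003 CPM). The libraries numbered 32 to 36 are all sGC animals (F1 replicates 4 and 5, F2 replicate 6, F3 replicates 5 and 6), and results without them are given where they differ. The F2 table also stood apart, since 441 of 11389 genes differed more than 2-fold between F2 and F1 control animals and 2 genes between F3 and F1. Comparisons were therefore made within generations.

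In the F3 hippocampus, APP was lower in every sGC animal than in every control animal. The 6 control animals had between 2056 and 2280 CPM (median 2161), and the sGC animals had 1787, 1799, 1805, 1818, 1821, 1865 and 1888 CPM in order of level, for a median of 1818 CPM. The highest sGC animal thus lay below the lowest control animal. Group means were 2171 ± 93.7 CPM (SD, n = 6) and 1826 ± 36.7 CPM (SD, n = 7). This gave a log2 fold change of -0.25 (standard error 0.0319), or 15.9% fewer reads. Within the sGC group APP varied little, with a coefficient of variation of 2.01%, the lowest of the 6 groups for this gene. Leaving out single animals kept the log2 fold change between -0.26 and -0.23.

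**Figure D1:**
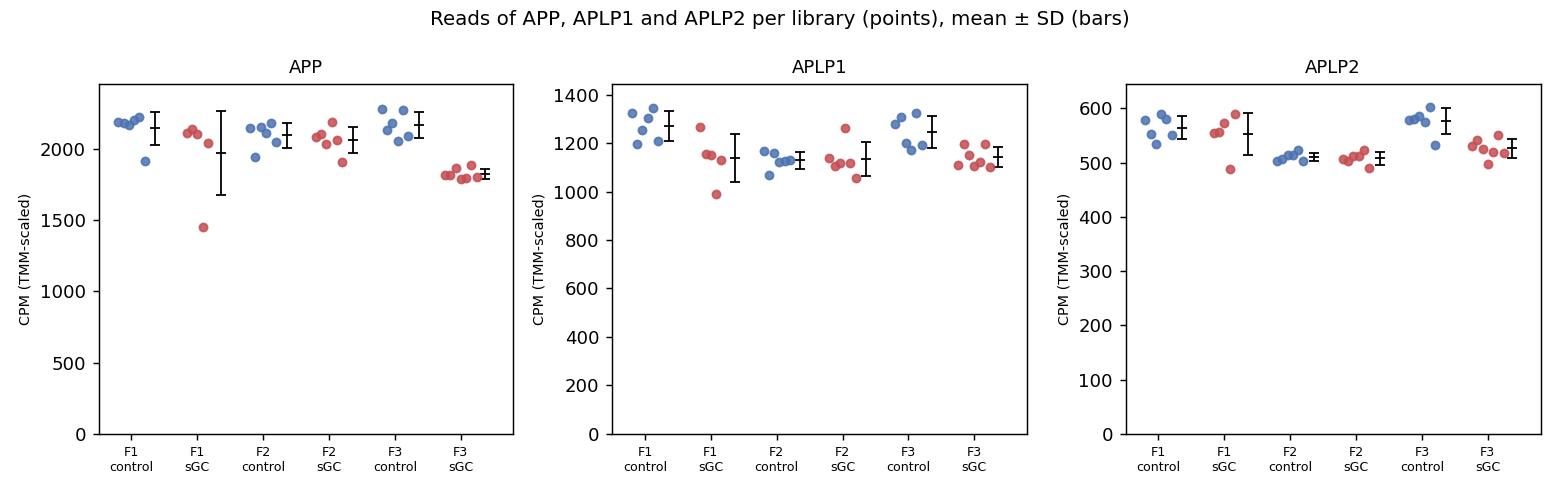
Levels of APP, APLP1 and APLP2 in each library (points, CPM scaled by TMM; blue control, red sGC) with the mean and SD of each group (bars), by generation. The 7 F3 sGC animals lie below all 6 F3 control animals for APP, and the low F1 sGC point of APP is replicate 4 (1453 CPM).

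In F1, APP did not pass the test. Control animals had 1917 to 2229 CPM (median 2185), and sGC animals had 1453, 2045, 2108, 2117 and 2143 CPM. All 5 sGC animals lay below the control mean of 2148 ± 115.1 CPM (SD, n = 6), but the groups overlapped, because control replicate 6 (1917 CPM) fell below 4 of the 5 sGC animals. The log2 fold change was -0.12 (standard error 0.0908, 95% confidence interval -0.32 to 0.07, edgeR adjusted p = 0.473). A single animal made most of this difference, as the log2 fold change was -0.03 without sGC replicate 4. That animal is also the one with the high astrocyte and low neuron marker sums, whose part in its APP level was not tested.

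APP levels of the F2 groups lay on top of each other. Control animals had 1945 to 2181 CPM (median 2132) and sGC animals 1908 to 2191 CPM (median 2073). The log2 fold change was -0.02 (standard error 0.0336, 95% confidence interval -0.09 to 0.05, edgeR adjusted p = 0.912). The effect of sGC in F2 minus that in F1 was 0.10 on the log2 scale (edgeR interaction test, adjusted p = 0.590), so a difference between these generations was not shown. Control animals of the 3 generations were at similar APP levels, with F2 at -0.03 and F3 at 0.02 on the log2 scale against F1.

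APLP1, a paralog found mainly in neurons, was lower in sGC animals of F1 and F3 by amounts of the same order. In F3, control animals had 1173 to 1325 CPM (median 1239) and sGC animals 1101 to 1198 CPM (median 1122). The groups overlapped only between 1173 and 1198 CPM, and 7 of 7 sGC animals were below the control mean. The log2 fold change was -0.13 (standard error 0.0372). In F1, sGC animals had 988, 1129, 1150, 1157 and 1265 CPM against 1196 to 1346 CPM in control animals. Only sGC replicate 1 lay within the control range. The F1 log2 fold change was -0.16 (standard error 0.0622, 95% confidence interval -0.30 to -0.03), with an unadjusted p of 0.0206 and an adjusted p of 0.175 from edgeR, so it did not pass over all genes tested. It was -0.11 without sGC replicate 4. With all 3 generations in 1 fit the adjusted p was 0.0404. In F2 the change was 0.01 (95% confidence interval -0.07 to 0.08, edgeR adjusted p = 0.985). The interaction of F2 against F1, 0.16 on the log2 scale, did not pass either (unadjusted p = 0.0193, edgeR adjusted p = 0.204).

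APLP2, the paralog made in most tissues, was also lower in F3, with 532 to 604 CPM (median 580) in control and 498 to 552 CPM (median 526) in sGC animals. Control replicate 6, at 532 CPM, was the only control animal inside the sGC range. All 7 sGC animals were below the control mean, and the log2 fold change was -0.13 (standard error 0.0336). In F1 the values were 535 to 590 CPM in control and 488 to 589 CPM in sGC animals, and the log2 fold change was -0.03 (95% confidence interval -0.14 to 0.08, edgeR adjusted p = 0.774), or 0.01 without sGC replicate 4. In F2 they were 502 to 524 and 489 to 524 CPM, a change of -0.01 (95% confidence interval -0.06 to 0.04, edgeR adjusted p = 0.969). APP thus had the larger difference of the family in F3, which was visible in the reads of APP per read of each paralog. The ratio of APP to APLP2 in F3 was 3.77 ± 0.141 (SD, n = 6) for control and 3.47 ± 0.0791 (SD, n = 7) for sGC animals, a log2 difference of -0.12 (standard error 0.0253), and for APP to APLP1 the difference was -0.12 (standard error 0.0265). The groups overlapped for each ratio.

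ADAM10, the alpha-secretase, had narrow ranges in every group. In F1, control animals had 119 to 126 CPM (median 122) and sGC animals 121 to 138 CPM (median 126). The log2 fold change was 0.07 (standard error 0.0376, 95% confidence interval -0.01 to 0.15, edgeR adjusted p = 0.308). It was 0.00 in F2 (95% confidence interval -0.07 to 0.07, edgeR adjusted p = 0.998), and -0.01 in F3 (standard error 0.0299), where control animals had 119 to 129 and sGC animals 117 to 126 CPM.

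BACE1, the beta-secretase, likewise did not pass in F1 or F2. F1 control animals had 254 to 286 CPM (median 259) and sGC animals 229 to 272 CPM (median 253), a log2 fold change of -0.08 (standard error 0.04995, 95% confidence interval -0.18 to 0.03, edgeR adjusted p = 0.420), and of -0.04 without sGC replicate 4. The F2 change was -0.00 (95% confidence interval -0.08 to 0.07, edgeR adjusted p = 0.992). F3 control animals had 244 to 284 CPM and sGC animals 239 to 287 CPM, a change of -0.05 (standard error 0.0475) that was smaller than the spread within either group.

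BACE1 and ADAM10 make competing first cuts of APP, and the ratio of their reads was compared as well. F1 control animals had 2.11 to 2.35 BACE1 reads per ADAM10 read and F1 sGC animals 1.79 to 2.09, so that the groups did not overlap. The log2 difference was -0.15 (standard error 0.0472), and it ran from -0.17 to -0.11 when single animals were left out. In F2 the ranges were 1.84 to 2.10 and 1.82 to 2.03 (log2 difference -0.00), and in F3 they were 1.89 to 2.38 and 1.92 to 2.30 (log2 difference -0.04). The ratio was looked at together with 7 others in each generation, and no other comparison of a ratio gave groups without overlap. Among single genes in F1, 4.29% had such groups. The ratio was not tested, nothing is read from its lack of overlap, and neither gene alone passed in F1.

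**Figure D2:**
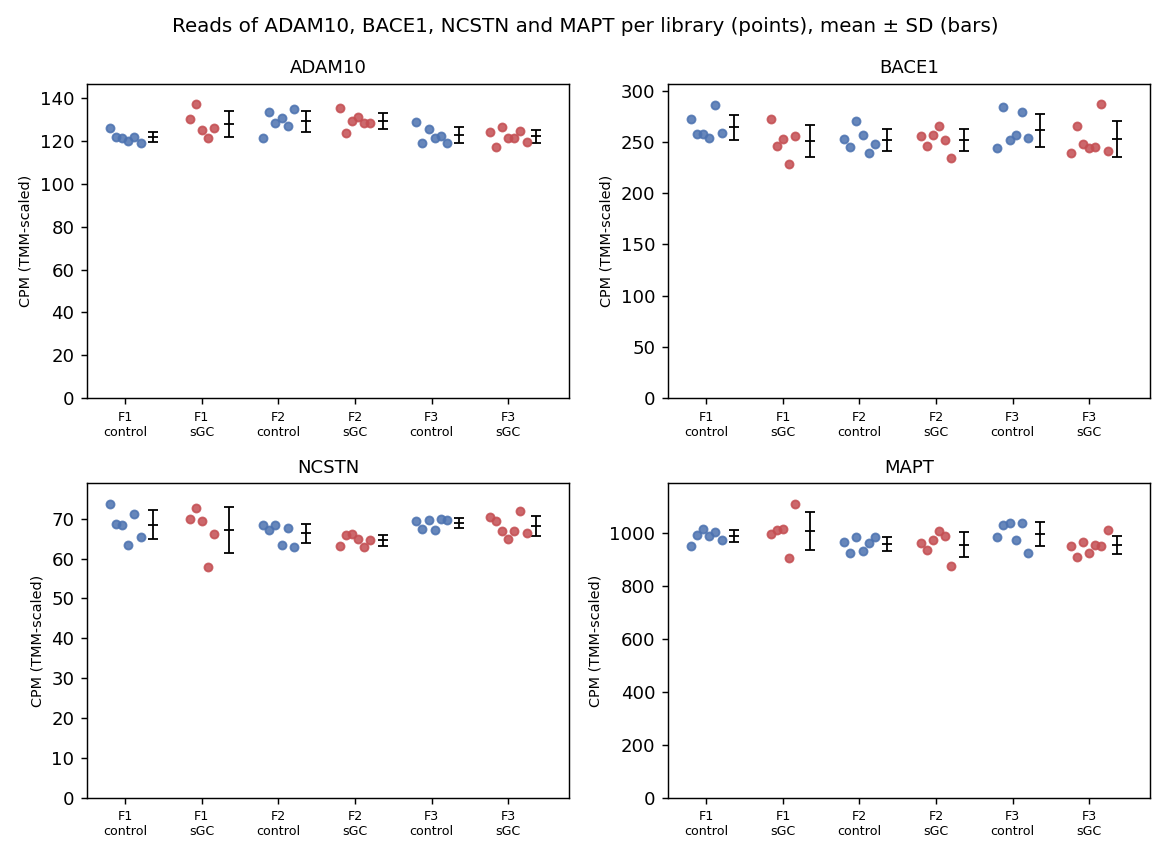
Levels of ADAM10, BACE1, NCSTN and MAPT in each library (points, CPM scaled by TMM; blue control, red sGC) with the mean and SD of each group (bars), by generation. Control and sGC animals overlap in each generation for all 4 genes.

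NCSTN, the nicastrin gene, was the only measured gamma-secretase subunit among the 8 genes. F1 control animals had 63.5 to 73.6 CPM and sGC animals 57.9 to 72.7 CPM, the lowest being sGC replicate 4. The log2 fold change was -0.03 (95% confidence interval -0.15 to 0.10, edgeR adjusted p = 0.827), and 0.02 without that animal. In F2, all 6 sGC animals lay below the control mean, by -0.04 on the log2 scale (standard error 0.0305, edgeR adjusted p = 0.815). In F3 the ranges were 67.1 to 69.8 CPM in control and 64.9 to 71.9 CPM in sGC animals, with a log2 fold change of -0.01 (standard error 0.0321).

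MAPT, the tau gene, had 949 to 1012 CPM in F1 control animals and 905 to 1107 CPM in F1 sGC animals, a log2 fold change of 0.03 (95% confidence interval -0.08 to 0.14, edgeR adjusted p = 0.807), or 0.07 without sGC replicate 4. The F2 change was -0.00 (95% confidence interval -0.07 to 0.06, edgeR adjusted p = 0.988). In F3, control animals had 922 to 1035 CPM (median 1006) and sGC animals 907 to 1012 CPM (median 951), with 6 of 7 sGC animals below the control mean. The F3 log2 fold change was -0.07 (standard error 0.0351), and the groups overlapped over most of their range.

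APOE moved the other way from APP in F3. Control animals had 2227 to 2345 CPM (median 2296), and sGC animals had 2471, 2490, 2505, 2554, 2686, 2712 and 2784 CPM. Every sGC animal was above every control animal. Means were 2293 ± 40.3 CPM (SD, n = 6) and 2600 ± 124.8 CPM (SD, n = 7). This was a log2 fold change of 0.18 (standard error 0.0341), or 13.4% more reads. Leaving out single animals gave 0.16 to 0.19.

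The F1 and F2 values of APOE did not pass the test. F1 control animals had 2161 to 2672 CPM (median 2407), and sGC animals had 2221, 2303, 2337, 2591 and 3321 CPM, the highest again being sGC replicate 4. The log2 fold change was 0.08 (standard error 0.0979, 95% confidence interval -0.13 to 0.29, edgeR adjusted p = 0.708). Without that animal it was -0.03, so its sign rests on 1 library. F2 control animals had 971 to 1112 CPM (median 1044) and sGC animals 1087 to 1170 CPM (median 1120). All 6 sGC animals were above the control mean, and the groups overlapped at 1087 to 1112 CPM. The F2 log2 fold change was 0.11 (standard error 0.0344, 95% confidence interval 0.04 to 0.18), with an unadjusted p of 0.00510 and an adjusted p of 0.678 from edgeR. The F2 effect minus the F1 effect was 0.03 (edgeR interaction test, adjusted p = 0.899).

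The level of APOE itself was far lower in the F2 table than in the other tables. Between control animals it was -1.22 on the log2 scale in F2 against F1, and -0.07 in F3 against F1. APLP1 (-0.17) and APLP2 (-0.14) were also lower in F2 than in F1 control animals, and the other 5 genes were within 0.09. Generation and the making of each table cannot be told apart here, and the cause of these offsets was not tested.

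**Figure D3:**
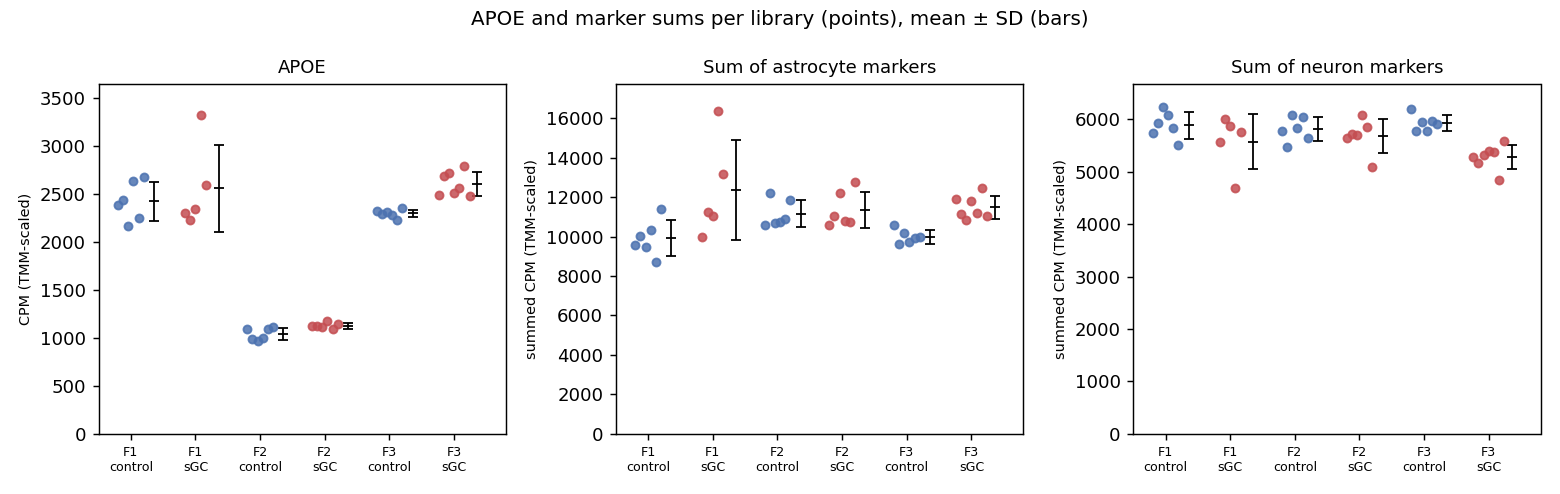
Levels of APOE and the summed levels of 10 astrocyte and 8 neuron marker genes in each library (points, CPM scaled by TMM; blue control, red sGC) with the mean and SD of each group (bars). F3 sGC animals lie above all F3 control animals for APOE and the astrocyte sum and below them for the neuron sum, and APOE in F2 is at 971 to 1170 CPM.

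In all 3 generations the general neuron and astrocyte marker sums differed in the same directions as APP and APOE, but by unlike amounts. Only in F3 did the groups overlap for neither sum. For F1 the neuron sum was at -0.08 (APP -0.12) and the astrocyte sum at 0.30 (APOE 0.08, or -0.03 without sGC replicate 4). The F2 sums were at -0.03 (APP -0.02) and 0.02 (APOE 0.11). In F3, all 8 neuron markers measured (of 9 listed; GAP43 was not in the tables) had lower means in sGC animals, and 5 passed: SNAP25 (log2 fold change -0.19, edgeR adjusted p = 0.0160), which drives vesicle fusion, the neurofilament genes NEFL (-0.17, edgeR adjusted p = 0.0119) and NEFM (-0.22, edgeR adjusted p = 0.0104), the RNA-binding protein gene ELAVL4 (-0.17, edgeR adjusted p = 0.0204) and the neuronal enolase ENO2 (-0.17, edgeR adjusted p = 0.00898). Their summed level was 5772 to 6199 CPM in control and 4841 to 5579 CPM in sGC animals, a log2 difference of the means of -0.17 with no overlap. The list of hippocampal neuron markers moved less, with a summed log2 difference of -0.05 and overlapping groups. None of its 6 measured genes passed in edgeR or had an unadjusted p below 0.05, and they ran from PROX1 (0.04) and NEUROD2 (-0.01) to NEUROD6 (-0.14). All 10 astrocyte markers measured (of 11 listed; SOX9 was not in the tables) had higher means, and 4 passed: the glutamate transporter SLC1A2 (0.24, edgeR adjusted p = 0.0201), GLUL (0.15, edgeR adjusted p = 0.0456), S100B (0.23, edgeR adjusted p = 0.0156) and the bicarbonate transporter SLC4A4 (0.24, edgeR adjusted p = 0.0178). Their sum was 9600 to 10587 CPM in control and 10833 to 12451 CPM in sGC animals, a log2 difference of 0.20. Over all genes in F3, 2.87% were called lower and 2.17% higher. The marker lists were chosen with earlier results of these data known, so these calls are not independent of them. In bulk tissue, fewer cells of a type and less RNA per cell cannot be told apart.

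Divided by the sum of the general neuron list (APP) or of the astrocyte list (APOE), the F3 differences were smaller. These sums are not weighted, so genes with many reads set most of them. In F3 control animals SNAP25 gave 2153 CPM and RBFOX3 199 CPM to the neuron sum, and SLC1A2 gave 3324 CPM to the astrocyte sum. APP was not divided by the hippocampal neuron sum, which differed by -0.05 in F3. APP per neuron marker sum was 0.353 to 0.381 in control and 0.324 to 0.390 in sGC animals of F3, which overlapped. The highest sGC ratio was that of replicate 6, which had the lowest neuron marker sum of F3 (4841 CPM). The log2 difference of APP per neuron marker sum was -0.08 (standard error 0.0370). It was -0.11 without sGC replicate 6, and ran from -0.11 to -0.06 over all animals left out singly. APLP1 and APLP2 per neuron marker sum each differed by 0.04, and MAPT by 0.10 (standard error 0.0398). APOE per astrocyte marker sum was 0.219 to 0.238 in control and 0.210 to 0.250 in sGC animals, a log2 difference of -0.02 (standard error 0.0399). In F1 the log2 difference of the astrocyte sum was 0.30, with overlapping groups, a higher mean for 10 of 10 markers and 1 of them called. It was 0.19 without sGC replicate 4, and the neuron sum went from -0.08 to -0.02. APOE per astrocyte marker sum was 0.228 to 0.258 in control and 0.197 to 0.231 in sGC animals of F1, a log2 difference of -0.23 (standard error 0.0519). In F2 both sums differed little, the neuron sum by -0.03 and the astrocyte sum by 0.02. Among other cell types, the 7 microglia markers of F3 all had higher means (log2 difference of the sum 0.14, overlapping groups), the 5 meningeal fibroblast markers likewise (0.15, overlapping groups), and the oligodendrocyte sum differed by 0.05. In F1 the meningeal sum was at -0.78 (overlapping groups, 2 of 5 markers called lower) and the oligodendrocyte sum at -0.26 (overlapping groups, 4 of 4 lower means). The thalamic sum was at 0.25 in F1, with no overlap and 1 of 4 markers called higher. That gene was RORA, with means of 28.7 CPM in control and 37.2 CPM in sGC animals. LHX9 (log2 fold change 0.44), TCF7L2 (-0.05) and PRKCD (-0.01) were not called. The part of cell composition in the values of the 8 genes was not tested beyond these ratios.

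Counts of called genes put the 8 genes beside all others. In F1, 0 of 8 passed an adjusted p of 0.05 in edgeR's quasi-likelihood test, where 2.08% of 11377 genes did (1.63% higher and 0.457% lower in sGC animals). None of the 8 had groups that did not overlap, beside 4.29% of genes (2.41% higher and 1.88% lower). APLP1 alone had an unadjusted p below 0.05, against 19.6% of all genes, and DESeq2 and the likelihood ratio test also called 0 of 8. In F2, 0 of 8 passed and 0% of 11414 genes did, and 0 of 8 had groups that did not overlap, beside 0.392% of genes. APOE had an unadjusted p below 0.05, against 6.64% of all genes, and both other tools again called 0 of 8. In F3, where the list was chosen on this contrast, 3 of 8 passed (APP and APLP2 lower, APOE higher) beside 5.04% of 11359 genes, and 2 of 8 had groups that did not overlap (APP and APOE) beside 2.72% of genes (0.828% higher and 1.89% lower). An unadjusted p below 0.05 was reached by 4 of 8, beside 21.1% of genes. Because the list was made with this contrast known, nothing is read from these F3 shares or from which of the 8 genes passed. The log2 fold change was -0.13 for both APLP1 and APLP2, and the call of APLP2 was lost in 9 of the 13 fits that left out 1 animal. The median log2 fold change of the 8 genes was -0.03 in F1, -0.00 in F2 and -0.06 in F3, beside medians of -0.01, -0.00 and 0.00 over all genes tested. For the interaction of F2 against F1, 0 of 8 genes and 0.351% of all genes passed in edgeR, APLP1 alone of the 8 had an unadjusted p below 0.05, and DESeq2 and the likelihood ratio test called 0 of 8.

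**Figure D4:**
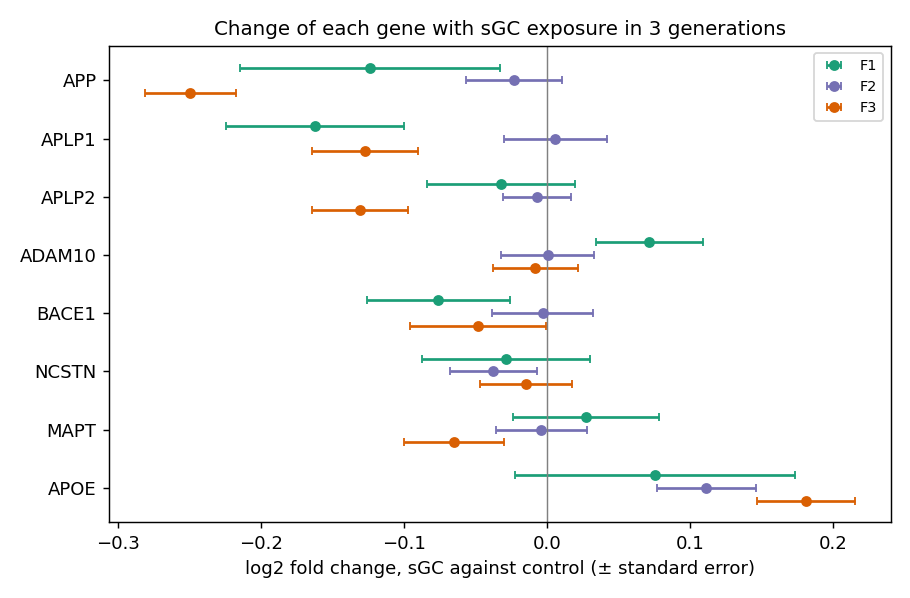
Log2 fold change of sGC against control animals for the 8 genes (horizontal axis) with its standard error (bars), in F1 (green), F2 (purple) and F3 (orange). APP at -0.25 and APOE at 0.18 in F3 lie farthest from 0, and the F2 points lie within 0.04 of 0 except for APOE at 0.11.

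The remainder of the APP pathway was described with 63 further genes in 5 lists, of which 51 were tested in each generation. In F3, 7 of the 51 were called lower and 0 called higher, beside 2.87% of all genes called lower and 2.17% called higher. The log2 fold change was negative for 31 of the 51 and positive for 20. The lists were chosen with earlier results of these data known, so nothing is read from these shares. The remaining secretase genes, among them ADAM9, ADAM17, BACE2, APH1A and APH1B, were all 7 short of the threshold, with log2 fold changes from -0.04 to 0.12 and a smallest adjusted p of 0.412 from edgeR. Among 19 genes of APP adaptors and sorting, 4 were called lower. RTN3, a reticulon that binds BACE1, went from 3505 ± 65.1 CPM (SD, n = 6) in control to 3133 ± 95.6 CPM (SD, n = 7), by -0.16 in log2 terms (edgeR adjusted p = 0.00735). RTN4, the reticulon that encodes Nogo, fell by 0.15 in log2 terms (edgeR adjusted p = 0.00902). For RTN3 and RTN4 all 7 sGC animals were below every control animal, and the same held for ITM2C (-0.13, edgeR adjusted p = 0.0317), a BRI family protein that binds APP. Over all genes in F3, 1.89% were lower in sGC animals with no overlap. VPS35, a core subunit of the retromer that returns cargo from endosomes, fell by 0.14 (edgeR adjusted p = 0.0355), with overlapping groups.

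Of 6 genes for degradation of amyloid-beta, the lysosomal protease gene CTSB fell in F3 (log2 fold change -0.12, edgeR adjusted p = 0.0465), with groups that did not overlap. IDE, MME, ECE1, ECE2, CTSD and PITRM1 are the other genes listed, of which 5 were tested and did not pass. All 7 tested partners and receptors of apolipoprotein E were short of the threshold (log2 fold changes from -0.05 to 0.21, smallest adjusted p 0.149 from edgeR). In the list of tau kinases, phosphatases and related microtubule proteins, 2 of 12 were called lower, both of them parts of protein phosphatase PP2A, the main tau phosphatase. PPP2CA, its catalytic subunit, went from 347 ± 9.65 CPM (SD, n = 6) in control to 313 ± 9.86 CPM (SD, n = 7), by -0.15 in log2 terms (edgeR adjusted p = 0.0110), and PPP2R2A, a regulatory subunit, changed by -0.15 (edgeR adjusted p = 0.0166). Without libraries 32 to 36, the genes RTN3, RTN4, PPP2CA and PPP2R2A passed and ITM2C, VPS35 and CTSB did not. The count of 7 was 4 without control replicate 1, control replicate 4, sGC replicate 5 or sGC replicate 7, and these 3 genes were then the ones lost.

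**Figure D5:**
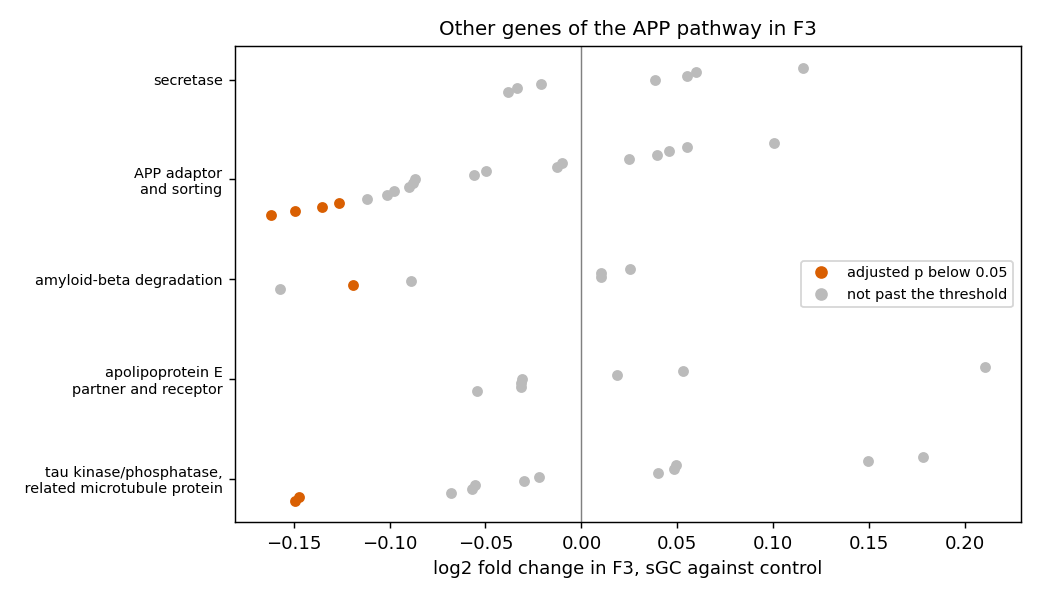
Log2 fold change in F3 (horizontal axis, sGC against control animals) of the 51 other genes of the APP pathway tested, in 5 lists (vertical axis), 1 point per gene. The 7 genes with an adjusted p below 0.05 (orange) are all lower, and none is a secretase gene or a partner of apolipoprotein E.

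In F1, 0 of the 51 genes passed in edgeR's quasi-likelihood test and 15 had an unadjusted p below 0.05, beside 19.6% of all genes. Each of these had an adjusted p of 0.0578 or more. The smallest belonged to SORL1, the sorting receptor that binds APP, at 339 ± 16.1 CPM (SD, n = 6) for control and 385 ± 20.9 CPM (SD, n = 5) for sGC animals. Named after their values were seen, MAP1B was higher (log2 fold change 0.30, edgeR adjusted p = 0.0800), and ITM2C (-0.17, edgeR adjusted p = 0.0979) and APBB1 (-0.11, edgeR adjusted p = 0.194) were lower, each with groups that did not overlap, which makes 3 of the 51 beside 4.29% of all genes. The count moved with the test, and the likelihood ratio test called 7 of the 51 higher and 1 lower, and the 3 generations in 1 fit gave 9 and 1. Without sGC replicate 4 the quasi-likelihood test called 4 higher, and without sGC replicate 1 it called 3. In F2, 0 of the 51 passed with edgeR's quasi-likelihood test, and 5 had an unadjusted p below 0.05, beside 6.64% of all genes (smallest adjusted p 0.678), with 0 called by the likelihood ratio test and by DESeq2. Of these 5 genes only RTN4 was lower, with 6 of 6 sGC animals below the control mean and a log2 fold change of -0.07. GGA1 (0.13), ECE1 (0.10), LRP8 (0.09) and APBA1 (0.07) were higher.

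Across the 36 libraries, after the mean of each generation was subtracted, the genes whose log2 CPM followed APP most closely included SV2A (Pearson r = 0.95), CLSTN3 (0.94), COPG1 (0.93) and ATP1B1 (0.92). SV2A encodes a synaptic vesicle protein, CLSTN3 a synaptic adhesion protein, COPG1 a coat protein of transport vesicles, and ATP1B1 a beta subunit of the sodium pump. In F3 these 4 genes had log2 fold changes between -0.26 (ATP1B1) and -0.13 (COPG1). The lowest correlations were those of GPM6B (-0.89), RPL24 (-0.89) and NF2 (-0.88). APLP1 (0.82) was 79th and APLP2 (0.81) 87th of 11388 genes, whereas NCSTN (0.60), MAPT (0.56) and BACE1 (0.52) followed APP less, ADAM10 (0.16) hardly, and APOE (-0.74) ran opposite. These correlations share the libraries and their scaling, hold the F3 difference itself, and depend on 1 animal in part. With the treatment groups also centred, APP and APOE had r = -0.66, and -0.34 without F1 sGC replicate 4, while APP and APLP1 had 0.75 and 0.69.

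Spread between animals was itself uneven. For 7 of the 8 genes the coefficient of variation within a group was highest in F1 sGC animals, at 14.9% for APP and 17.6% for APOE. The exception was BACE1 (6.83% in F3 sGC animals). For APP and APOE the F1 spread came largely from sGC replicate 4. That animal had 1453 CPM of APP, against 2045 to 2143 CPM in the other F1 sGC animals, and 3321 CPM of APOE, against 2221 to 2591 CPM. The lowest values were 1.61% for APLP2 in F2 control and 1.76% for APOE in F3 control animals.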

How the data were processed

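Hippocampal mRNA of 36 animals was sequenced by the authors with single reads of 51 bases, from RNA with an integrity number of at least 7. The values deposited are counts of reads on each gene of each animal, not normalized, in 1 table per generation. TopHat2, Trimmomatic 0.32 and edgeR are named in the submitters' processing notes. The counter of reads and the genome build of the RNA data are not given in the sources used here. The tables also hold results of the authors' own comparisons (log2 fold changes, log2 CPM, statistics, p-values and FDR), and the methylation tables hold group differences with p-values and q-values. None of these was used. Reads were not corrected for transcript length, and counting per gene cannot separate isoforms or reads shared between paralogs.

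Symbols were matched with case ignored, and groups came from the sample titles. Within each generation, genes kept by filterByExpr (11377, 11414 and 11359) were compared with edgeR 4.0.16 (R 4.3.3, TMM, quasi-likelihood test, Benjamini-Hochberg adjustment over all genes tested, threshold 0.05). Members, pathway lists and marker lists were chosen with earlier results of these data known. Named were all members, pathway genes past the threshold in any comparison, the 5 genes most and 3 least correlated with APP (log2 CPM, prior count 2), and markers whose list sum changed. A few genes that these rules cover are not reported by name. The F2 against F1 interaction used all 36 libraries. Alternatives were the likelihood ratio test, DESeq2 1.42.0, relative log expression scaling, no filter, a joint fit, a replicate block, and leaving out libraries. Confidence intervals are at 95%. Libraries of a group differed by more than counting error (chi-square per degree of freedom 2.15 to 29.5). Scripts were tested on simulated data. Figures used matplotlib 3.10.9.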

Additional observations from a re-analysis of the deposited data

Results flagged for a closer look

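Among the 48 sets of a gene in a group that were checked for a value far from the others, 2 were found, both for APP in F1. Chance alone gives about 1 in 20 of such sets, so 2 of 48 are no more than chance gives. In F1 sGC animals, replicate 4 had 1453 CPM, where the next animal had 2045 CPM. In F1 control animals, replicate 6 had 1917 CPM, where the next had 2167 CPM.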

How the results depend on the processing

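For F1, the count of the 51 other pathway genes called higher was 0 in edgeR's quasi-likelihood test, 7 with the likelihood ratio test, 7 with DESeq2, 9 with all 3 generations fitted together and 2 without libraries 32 to 36, and those called lower were 0, and 1 with each of the first 3. Leaving out single animals gave 0 to 4 higher in F1, with 3 without sGC replicate 1 and 4 without sGC replicate 4. The joint fit also called 1 of the 8 members in F1 (APLP1). In F3, the 7 pathway genes lower became 4 without libraries 32 to 36 and 2 with a replicate block. Single animals left out gave 4 to 7 lower there (4 without control replicate 1 or 4 or sGC replicate 5 or 7) and 0 to 1 higher (1 without sGC replicate 3). Members called in F3 were 3, and 2 to 4 over all alternatives, with 2 under the replicate block, in the joint fit and without libraries 32 to 36. APLP2 lost its call in 9 of the 13 fits that left out 1 animal. Nothing is read from these F3 calls of members, since the list was made with this contrast known. The causes of the changed counts were not tested. APP in F3 was -0.08 on the log2 scale when divided by the neuron marker sum and APOE -0.0173 when divided by the astrocyte marker sum, both ratios added after the data were seen. Of the 5 genes most like APP, 2 were kept with treatment groups centred. Replicate numbers did not pair the animals (correlations of same-numbered animals -0.293 to 0.292, with 1, 1 and 0 animals closest to their own number in F1, F2 and F3). The block changed no other count of calls by over 1.5 times. Members tested in F1 and F2 kept their side of the threshold in 295 alternative values and crossed it in 1 (APLP1), some with a change of sign near 0.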
